A study of Mus musculus with 8 samples.

Results

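The 7 genes described here, Iapp, Pdyn, Npy, Resp18, Nucb2, Nnat and Dlk1, encode peptides and granule or secretory-pathway proteins of pancreatic β-cells other than insulin. They were taken by name from the 24421 genes counted in every single-cell table of the study, and all 7 were present in each of the 8 tables. Iapp encodes islet amyloid polypeptide (amylin), which is packed with insulin in the same granules and released with it. Pdyn encodes prodynorphin, the precursor of the dynorphin opioid peptides, and Npy encodes neuropeptide Y, a peptide of neurons that β-cells make around birth. Resp18 encodes regulated endocrine-specific protein 18, a protein of the secretory pathway of endocrine cells. Nucb2 encodes nucleobindin 2, a calcium-binding protein from which nesfatin-1 is cut. Nnat and Dlk1 are imprinted genes, expressed from the paternal allele, that encode neuronatin, a small protein of the endoplasmic reticulum membrane, and a membrane protein with epidermal growth factor-like repeats.

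Peptide hormones are made as precursors, folded in the endoplasmic reticulum, sorted into dense-core granules and cut there by prohormone convertases. Islets hold β-cells (insulin), α-cells (glucagon), δ-cells (somatostatin) and PP cells (pancreatic polypeptide), and amylin is known mainly as a product of β-cells and of some δ-cells. Amylin slows gastric emptying and glucagon release, and the human peptide, unlike that of mice, forms amyloid in islets.

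Islet cells were from 8-week-old male C57BL/6J mice, an inbred strain with no transgene. The 4 control samples were from mice without an operation, so no sham operation was included. The 4 PPTx samples were from mice in which 50% of the pancreas, on the side of the spleen, had been removed 2 days before islets were isolated. Each sample pooled the islets of a mouse or of a small number of mice, so p-values measure the spread between such pools. The PPTx samples came from what remained of the pancreas and the control samples from the whole organ, so that the operation and the region cannot be told apart.

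Unique molecular identifiers (UMIs), which count captured mRNA molecules, were available for 1240 cells, of which 1232 passed limits on genes and UMIs per cell. Samples held 65 to 294 of these cells and 227439 to 1580152 UMIs, with medians of 3328 to 8677 UMIs per cell. Each cell was put in a class by its most abundant hormone mRNA (Ins1 plus Ins2, Gcg, Sst or Ppy), where this was at least 3 times the next. There were 949 Ins-dominant cells (375 control and 574 PPTx), 110 Gcg-dominant, 125 Ppy-dominant and 9 Sst-dominant cells, and 39 mixed cells that entered no class. Median depth was 6061 UMIs in Ins-dominant, 3974.5 in Gcg-dominant, 5221 in Ppy-dominant and 2927 in Sst-dominant cells. Of the other markers of each class, 9 of 10 for Ins, 7 of 10 for Gcg, 4 of 6 for Sst and 4 of 6 for Ppy were highest in their own class, whereas Mafa, a factor of mature β-cells, was at or near 0 throughout. Ppy-dominant cells made up 5.58% ± 2.89 of control cells and 13.2% ± 2.52 of PPTx cells (SD, n = 4 each), and Gcg-dominant cells 15.9% ± 8.42 and 2.31% ± 1.40 (two-sided exact permutation test over samples, p = 0.0286 for each, the smallest that 4 against 4 can give). A total of 1 barcode occurred in a pair of samples, which touched 2 cells. Levels are UMIs per 1000000 UMIs of the summed cells of a class in a sample (CPM), given as mean ± SD over samples. As the kit counted one end of each mRNA, levels were compared between cells and not between genes.

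Positions are of the mouse build GRCm38, called mm10 in the labels. Iapp lies on the forward strand at chr6:142298425-142303820 and Npy on the same chromosome at chr6:49822710-49829507. Pdyn (chr2:129686549-129699938, reverse strand) and Nnat (chr2:157560078-157562525, forward strand) share chromosome 2. Resp18 is at chr1:75272197-75278415 on the reverse strand, Nucb2 at chr7:116504352-116540588 and Dlk1 at chr12:109452485-109463336, both on the forward strand. The 250 bases before the annotated start are shown for 3 genes because their mRNAs lay at opposite ends of the class comparisons: Iapp and Pdyn highest in Ins-dominant cells and Resp18 lowest in them. The sequences are from RefSeq (GRCm38.p6), 5′ to 3′ on the strand of the gene, with capitals marking TAAT, a core that homeodomain factors such as Pdx1 bind, read on either strand (ATTA where it lies on the other one).
Iapp, chr6:142298175-142298424: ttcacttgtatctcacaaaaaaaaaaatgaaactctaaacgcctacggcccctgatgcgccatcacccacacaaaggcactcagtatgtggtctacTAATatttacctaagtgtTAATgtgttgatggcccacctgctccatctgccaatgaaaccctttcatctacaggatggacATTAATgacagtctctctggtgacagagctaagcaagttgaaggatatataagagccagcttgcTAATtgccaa
Pdyn, chr2:129699939-129700188: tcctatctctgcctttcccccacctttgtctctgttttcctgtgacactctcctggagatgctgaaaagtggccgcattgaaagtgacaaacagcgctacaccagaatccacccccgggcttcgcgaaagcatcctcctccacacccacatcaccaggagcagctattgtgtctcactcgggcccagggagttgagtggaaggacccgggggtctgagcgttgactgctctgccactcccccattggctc
Resp18, chr1:75278416-75278665: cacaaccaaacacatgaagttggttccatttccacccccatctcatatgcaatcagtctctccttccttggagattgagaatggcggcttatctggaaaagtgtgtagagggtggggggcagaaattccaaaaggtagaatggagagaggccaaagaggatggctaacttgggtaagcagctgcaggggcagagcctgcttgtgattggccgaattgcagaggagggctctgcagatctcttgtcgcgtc
Another annotated start of Pdyn, whose window chr2:129698659-129698908 is not printed, had 2 TAAT matches, the nearest 58 bases before it. In the windows shown, TAAT occurred 5 times in the Iapp window, counting overlapping matches on both strands, and 0 times in those of Pdyn and Resp18, while 54.9% of 32851 windows of this length before annotated starts held at least 1. CANNTG, the E-box read by factors such as Neurod1, occurred 3 times before Iapp and 3 times before Resp18 but 0 times before Pdyn (66.2% of windows). TATAA occurred once before Iapp and was absent from the other two windows (22.8% of windows). These matches describe the letters of the windows, and binding was not measured.

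In every sample, Iapp, Pdyn and Nucb2 were higher in Ins-dominant cells than in the pooled other hormone cells, and Resp18 was lower (8 of 8 samples for each, two-sided exact sign-flip test over samples, p = 0.0078, the smallest that 8 samples can give). Nnat was higher in Ins-dominant cells in 7 of 8 samples (exact p = 0.0234). The other hormone cells held at most 2 Nnat UMIs in any sample, too few to set a level there. Npy was found in Ins-dominant cells of 4 samples (exact p = 0.125), and Dlk1 in those of 1 sample (exact p = 1). As neither had a UMI in the other hormone cells, the direction was fixed wherever they were found, and their p-values cannot decide it. These 7 tests were not adjusted for their number.

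**Figure D1:**
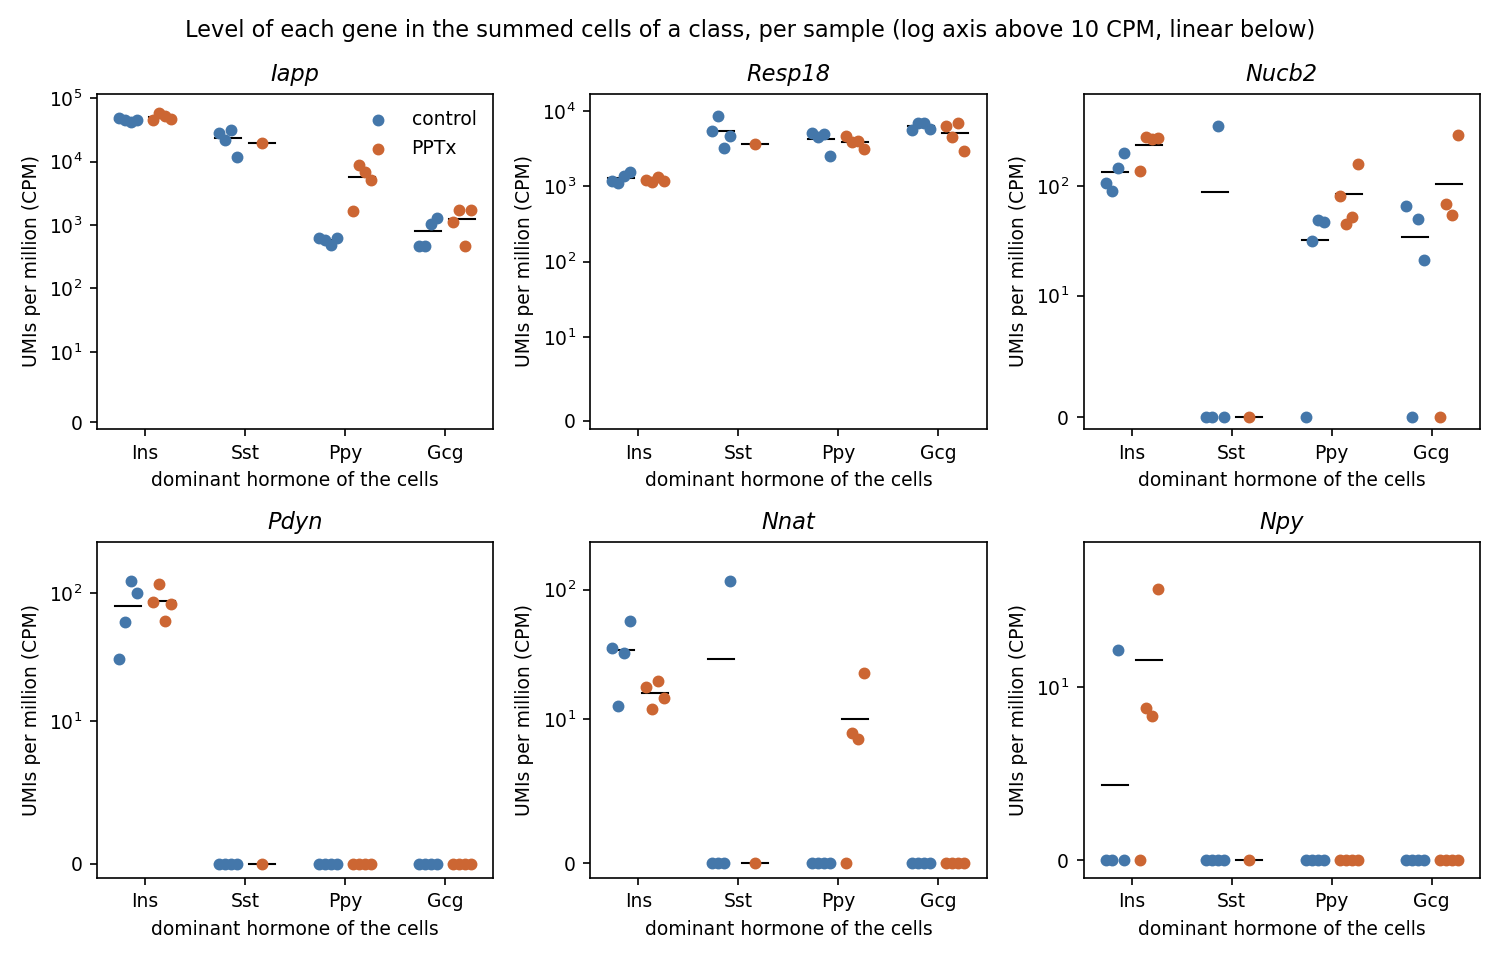
Level of 6 of the genes (CPM, log axis above 10 and linear below) in the summed cells of each hormone class, with 1 point per sample (blue, control; orange, PPTx) and a line at the mean. Iapp, Nucb2, Pdyn and Nnat sit highest in Ins-dominant cells in most samples, Npy is above 0 in that class alone and in 4 samples, Resp18 sits lowest there, and the Iapp points of Ppy-dominant cells separate by operation; the Sst points rest on 1 or 2 cells each.

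Of the members fitted, Iapp differed most from Ins-dominant cells in the Gcg-dominant and Ppy-dominant classes. In Ins-dominant cells its level was 49653, 46092, 41556 and 45055 CPM in control samples 1 to 4 and 46029, 59449, 52230 and 47792 CPM in PPTx samples 1 to 4. In Gcg-dominant cells it was 460, 473, 1037 and 1302 CPM in the controls and 1122, 1701, 462 and 1758 CPM after PPTx, the last of these from 1 cell. No sample of one class overlapped the other. In a paired edgeR quasi-likelihood fit, in which each class was compared within samples, Iapp was lower in Gcg-dominant than in Ins-dominant cells by a log2 difference of -6.13 (SE 0.47, adjusted p = 1.96e-19) and lower in Ppy-dominant cells by -4.42 (SE 0.41, adjusted p = 1.98e-15).

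Insulin UMIs were found in 244 of 244 cells of the other hormone classes once every cell was thinned to 2000 UMIs. Iapp UMIs were found in 75.0% of those cells (95% exact binomial interval 69.1 to 80.3%) and in 99.9% of Ins-dominant cells. Since free RNA from 1 source keeps its genes in 1 ratio, Iapp was also counted per 100 insulin UMIs. This ratio was 7.52 ± 0.769 in control and 9.13 ± 1.78 in PPTx Ins-dominant cells (n = 4 each). In Gcg-dominant cells it was 10.04 ± 4.55 and 12.7 ± 5.01, higher than in the Ins-dominant cells of the same sample in 5 of 8 samples (two-sided exact sign-flip test, p = 0.188). Free RNA itself was not measured, and its part in these levels was not tested.

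In control Ppy-dominant cells Iapp was just as low, at 615, 582, 493 and 623 CPM (578 ± 59.9), or 1.33% of the pooled level of control Ins-dominant cells. Their insulin mRNAs stood at 1.01% (Ins2) and 0.800% (Ins1). Between control Ppy-dominant and Gcg-dominant cells the order of Iapp changed from sample to sample, with Ppy higher in 2 of 4.

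Sst-dominant cells were different in this respect. Their Iapp level was 28555, 22108, 31382 and 12026 CPM in the controls, each from 2 cells, and 19906 CPM in the 1 cell found after PPTx. All 5 values lay below those of the Ins-dominant cells of the same sample and above those of the Gcg-dominant and Ppy-dominant cells (exact sign-flip p = 0.0625 for each pair, the smallest that 5 samples can give). In the pooled controls Iapp stood at 50.2% of the Ins-dominant level, while Ins1 and Ins2 stood at 1.34% and 2.11%. The ratio of Iapp to 100 insulin UMIs was 75.2 to 471 in the 4 control samples and 104 in the PPTx cell, above the ratio of Ins-dominant cells in 5 of 5 samples. Since no sample had the 5 cells required for a sum, this class was fitted only after the requirement was lowered to 1 cell, a choice made after seeing the data. In that fit Iapp was lower than in Ins-dominant cells by -1.94 on the log2 scale (SE 0.46, edgeR adjusted p = 0.000410), Resp18 was higher by 0.76 (SE 0.26, adjusted p = 0.0289) and Nucb2 had a difference of -2.14 (SE 0.84, adjusted p = 0.0563), that is, 2 of 3 members called beside 18.1% of all genes tested. The fitted differences of Iapp and Resp18 lay below those of the CPM. Pooled control Iapp stood at 50.2%, and control Resp18 was higher by 4149 CPM over 1300 CPM in Ins-dominant cells. The fit scaled the sums by TMM factors, which the CPM do not carry, and the cause of the gap was not tested.

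**Figure D2:**
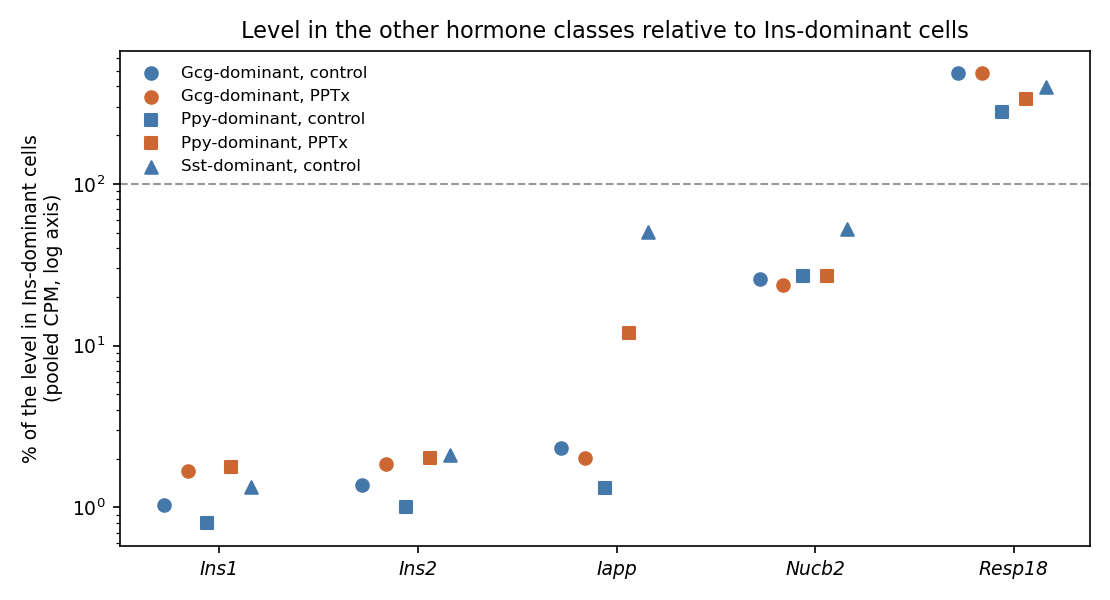
Level of Ins1, Ins2, Iapp, Nucb2 and Resp18 in 3 hormone classes as a percentage of the level in Ins-dominant cells of the same group (pooled CPM, log axis, dashed line at equality). Ins1 and Ins2 lie at 0.800 to 2.11% in the classes plotted (the 1 Sst-dominant PPTx cell is left out), whereas Iapp lies at 50.2% in Sst-dominant cells and at 11.9% in Ppy-dominant cells after PPTx, and Resp18 lies above 100% in every class; the Sst value of Nucb2 rests on 2 UMIs.

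Resp18 had the opposite order. Ins-dominant cells held 1177, 1116, 1364 and 1545 CPM in the controls and 1192, 1149, 1312 and 1165 CPM after PPTx. Gcg-dominant cells held 5515 to 6921 CPM in the controls and 2930 to 6932 CPM after PPTx, and Ppy-dominant cells 2553 to 5077 CPM and 3088 to 4616 CPM. Every sample of either class lay above every sample of the Ins-dominant cells. The log2 difference from Ins-dominant cells was 1.84 in Gcg-dominant cells (SE 0.15, edgeR adjusted p = 1.24e-17) and 1.60 in Ppy-dominant cells (SE 0.14, adjusted p = 4.60e-16). Between these classes, Resp18 was lower in Ppy-dominant than in Gcg-dominant cells in 7 of 8 samples (exact sign-flip p = 0.0156), and the level in Sst-dominant cells, 3173 to 8477 CPM in controls, overlapped both. At 2000 UMIs per cell, Resp18 was found in 77.7% of Ins-dominant cells and in 243 of 244 other hormone cells.

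Nucb2 was also lower outside Ins-dominant cells. Its log2 difference from Ins-dominant cells was -2.41 in Gcg-dominant cells (SE 0.31, edgeR adjusted p = 3.95e-10) and -1.76 in Ppy-dominant cells (SE 0.23, adjusted p = 9.93e-10). The pooled level was 25.7% of the Ins-dominant level in control Gcg-dominant cells and 27.1% in control Ppy-dominant cells, where the insulin mRNAs were at 0.800 to 1.38%. These levels rest on 15 and 8 UMIs, and 12 of the 15 came from control sample 3. In Gcg-dominant cells Nucb2 stood at 65.7, 0, 50.0 and 21.0 CPM in control samples 1 to 4, and also at 0 in PPTx sample 1. In Sst-dominant cells 2 Nucb2 UMIs were found, both in 1 cell of control sample 3. Ppy-dominant and Gcg-dominant cells did not differ beyond their spread (Ppy lower in 5 of 8 samples, exact sign-flip p = 0.680). In each of these fits 3 of 3 members tested (Iapp, Resp18 and Nucb2) were called, beside 46.9% of all 1376 genes in the Gcg-dominant and 46% in the Ppy-dominant comparison, so a call by itself was common. The other 4 members were under the filter on low counts.

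Among the hormone classes Pdyn was found in Ins-dominant cells alone, with 596 UMIs in 184 of 949 cells (19.4%) and 0 UMIs in 244 other hormone cells. Of the 39 mixed cells, which entered no class, 1 in PPTx sample 2 held 3 Pdyn UMIs. Against a floor of 3 counts in the pooled other hormone cells, the level in Ins-dominant cells was at least 37.9-fold higher, at least 14.8-fold higher than in Gcg-dominant and at least 22.2-fold higher than in Ppy-dominant cells. The 9 Sst-dominant cells held too few UMIs to set a bound above equality. At 2000 UMIs per cell, 9.27% of Ins-dominant cells (88 of 949) and 0 of 244 other cells held a Pdyn UMI, the latter allowing a share of up to 1.23%. This interval and floor cover counting error only.

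Pdyn was also uneven among Ins-dominant cells. The 19 cells with the most Pdyn UMIs, of the 184 with any, held 37.2% of them, 40 cells held 5 or more, and the highest cell held 24. In cells thinned to 2000 UMIs the variance of Pdyn was 2.16 times its mean, where counting error alone gives about the mean.

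Npy was rarer still, with 64 UMIs in 11 Ins-dominant cells. A single cell of PPTx sample 4 held 22 of them (34.4%), and the 2 highest cells together held 51.6%. None was found in the 244 other hormone cells, and 1 mixed cell of control sample 3 held 4. At 2000 UMIs per cell Npy was in 0.738% of Ins-dominant cells, below the 1.23% that 0 of 244 cells allows by the floor of 3 counts. A difference in the share of cells was therefore not detectable at this depth. Nnat had 160 UMIs in 78 Ins-dominant cells (8.22%), and 5 UMIs in 4 of 244 other hormone cells, 1 of them Sst-dominant in control sample 4 and the rest Ppy-dominant after PPTx. Dlk1 had 2 UMIs in 2 Ins-dominant cells of control sample 4, and 1 of these cells had little insulin and carried Col1a2, Col3a1 and Sparc, genes of stellate cells and fibroblasts. The expression of Dlk1 in islet cells was not measurable at this depth.

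**Figure D3:**
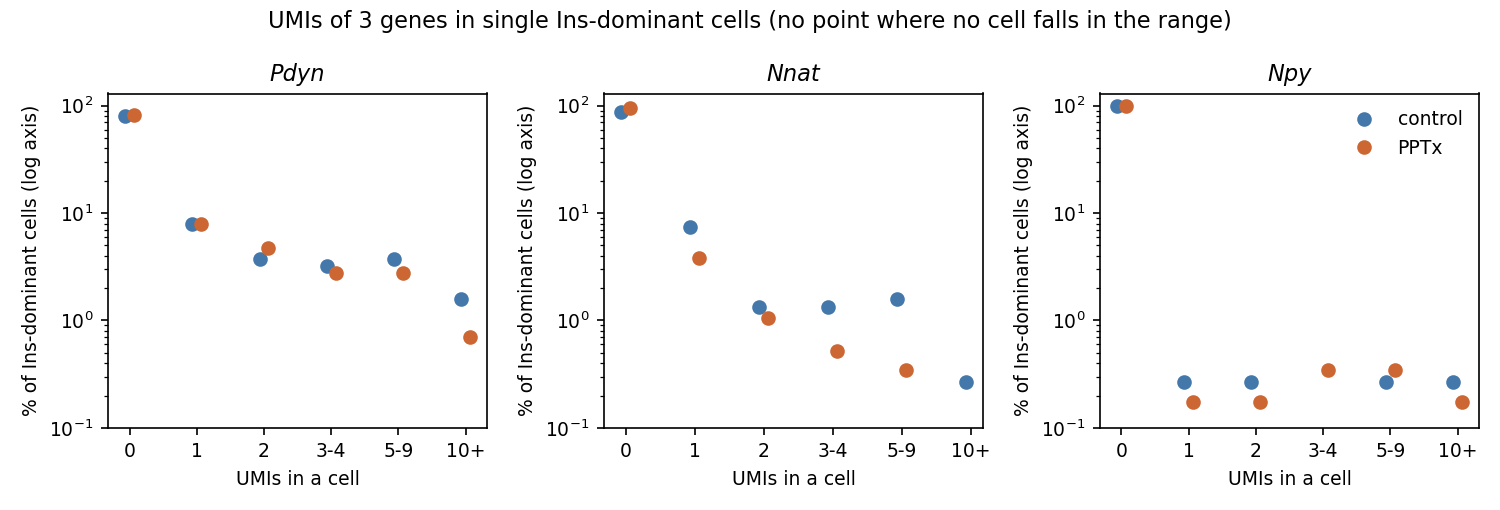
Percentage of Ins-dominant cells (log axis) by their number of Pdyn, Nnat or Npy UMIs, in control (blue, 375 cells) and PPTx (orange, 574 cells). Most cells held none; Pdyn extends to 10 UMIs or more in both groups, and Npy is confined to 11 cells.

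Iapp was carried by nearly every Ins-dominant cell, at levels that varied. It was found in 948 of 949 cells, and its CPM per cell had a coefficient of variation of 25.0 to 42.2% within a sample. At 2000 UMIs per cell its variance was 12.9 times its mean of 96.9 UMIs. The class, however, held 13 cells in which insulin made up under 10% of UMIs, 3 control and 10 PPTx. In 12 of these Iapp was at 0 to 4466 CPM, and several carried genes of immune or stellate cells, while the other 936 cells ranged from 10710 to 156689 CPM with a median of 46992. The 1 remaining cell, in PPTx sample 2, had Iapp at 144033 CPM with insulin at 3.44% of its UMIs, together with 389 Chga, 145 Pyy and 36 Ppy UMIs.

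The 6 members with enough UMIs were next set beside all 1719 genes with a mean of at least 50 CPM, by Pearson correlation of log2(CPM + 10) over 21 sums per sample and class. This is a description, since sums of a class share their hormone background and sums of a sample their library. Closest to Iapp were Frzb (r = 0.963), Bace2 (0.944) and Cox6a2 (0.939). Pdyn was closest to Ucn3 (0.963), Enho (0.963) and Ins1 (0.956), Resp18 to Dbpht2 (0.962), Cst3 (0.960) and Gpx3 (0.958), and Nnat to Frzb (0.885), Sez6l (0.879) and Bace2 (0.877). Nucb2 was closest to Pdia6 (0.891) and Sec61a1 (0.881), which serve protein folding and import in the endoplasmic reticulum, and to Atp5g1 (0.837). Npy reached only 0.693, with Manf.

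Genes that act with the members were counted in the same fits. Of 4 processing enzymes, Pcsk2, the convertase that matures glucagon, was higher in Gcg-dominant and Ppy-dominant than in Ins-dominant cells (log2 difference 1.22 and 0.63). The amidating enzyme Pam was higher too (0.88 and 0.47). Pcsk1, the convertase that opens proinsulin, was lower in both classes. Its 4 UMIs in 110 Gcg-dominant and 18 UMIs in 125 Ppy-dominant cells were too few for an exact difference. Of 36 other peptides and granule proteins, 28 were detected and 9 were tested, with 4 higher and 5 lower in Gcg-dominant cells and 4 higher and 4 lower in Ppy-dominant cells, beside the 46.9% and 46% of all genes called. Ucn3, the β-cell peptide urocortin 3, was lower in both classes. It held 4 UMIs in 110 Gcg-dominant and 5 in 125 Ppy-dominant cells, too few for an exact difference. Pyy, peptide YY, rose furthest (4.91 and 7.58). The granins Chga (-0.89 and -1.33) and Scg2 (-2.18 and -0.71) were lower in both classes, and Pcsk1n, which encodes the convertase inhibitor proSAAS, was higher in both (1.66 and 0.71). The median difference of the 9 was -0.39 and 0.20, against -0.01 and 0.01 for all genes tested.

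Of 22 further imprinted genes, 18 were detected, 6 were tested, and 5 were higher and 0 lower outside Ins-dominant cells in both classes, where 46.9% (Gcg) and 46% (Ppy) of all genes were called in either direction. The largest differences were those of Grb10 (3.86 in Gcg-dominant and 2.65 in Ppy-dominant cells), Nap1l5 (2.42 and 2.34), Gnas (2.22 and 1.13) and Ndn (1.49 and 1.34). Their median was 1.85 and 1.24, against -0.01 and 0.01 for all genes tested. Nnat, imprinted as well, had the opposite order, with 0 UMIs in 110 Gcg-dominant cells. Of 16 receptors to which the encoded peptides or Dlk1 relate, 10 were detected and 0 had enough UMIs to be tested between classes.

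PPTx was then compared with control in Ins-dominant cells, the cells in which the study followed replication. None of the 5 members that could be fitted (Iapp, Pdyn, Resp18, Nucb2 and Nnat) passed an adjusted p of 0.05 in edgeR, beside 0.272% of all 5892 genes (16 called, and 555 at an unadjusted p under 0.05). Nucb2 and Nnat were at an unadjusted p under 0.05, and DESeq2 called none of the 4 to which it gave an adjusted p, leaving out Nnat for its low mean.

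Iapp was 45589 ± 3332 CPM in control and 51375 ± 5982 CPM in PPTx Ins-dominant cells (n = 4 each), with PPTx samples 1 and 4 within the range of the controls. Its log2 difference was 0.08 (SE 0.12, edgeR adjusted p = 0.91). Resp18 was 1300 ± 194 and 1204 ± 74.0 CPM, and all 4 PPTx samples lay within the control range (log2 difference -0.21, SE 0.15, adjusted p = 0.71).

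Pdyn was 30.6, 59.3, 125 and 99.9 CPM in the controls and 84.5, 117, 60.2 and 82.8 CPM after PPTx, with the PPTx samples inside the wider range of the controls. Its log2 difference was -0.17 (SE 0.26, edgeR adjusted p = 0.90), opposite in sign to the difference of the mean CPM (78.7 ± 42.0 and 86.2 ± 23.6), and it turned to 0.18 when control sample 3 was left out. Npy was found in control sample 3 (17.3 CPM) and in PPTx samples 2 to 4 (8.79, 8.30 and 42.3 CPM), and the groups overlapped (two-sided exact permutation test, p = 0.543). Dlk1 was found only in control sample 4.

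Nucb2 was 107, 91.1, 146 and 201 CPM in the controls and 137, 281, 268 and 276 CPM after PPTx. PPTx samples 2 to 4 lay above all controls, and PPTx sample 1 lay among them. The log2 difference was 0.65 (SE 0.23, edgeR unadjusted p = 0.00888, adjusted p = 0.31), and an exact permutation of CPM over samples gave p = 0.0857. At 2000 UMIs per cell, Nucb2 was found in 20.6% ± 8.33 of control and 32.8% ± 9.27 of PPTx Ins-dominant cells (exact p = 0.0857). The result depended on the settings, as an unfiltered edgeR fit gave 0.67 with an adjusted p of 0.0356. A fit with a block for the replicate number gave an adjusted p of 0.0300, the lowest of a range of 0.0300 to 0.70 over 17 alternatives.

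Nnat was 35.7, 12.7, 32.3 and 57.4 CPM in the controls and 17.9, 11.98, 19.7 and 14.7 CPM after PPTx. Control sample 2 lay among the PPTx samples, and the other 3 controls lay above them all. The log2 difference was -1.31 (SE 0.34, edgeR unadjusted p = 0.000747, adjusted p = 0.122), and a fit without the filter on low counts gave -1.28 (adjusted p = 0.00696, within 0.00696 to 0.50 over 15 alternatives). At 2000 UMIs per cell, Nnat was found in 7.41, 3.85, 5.69 and 6.67% of the Ins-dominant cells of the controls and in 1.0, 2.13, 1.94 and 1.47% of those after PPTx. These shares did not overlap (5.90% ± 1.54 against 1.64% ± 0.506, two-sided exact permutation test, p = 0.0286, the smallest that 4 against 4 can give, and the lowest of 7 members compared). Without thinning the difference was -4.71 percentage points (exact p = 0.143), and at 4000 UMIs -4.78 points (exact p = 0.0571), so the separation was seen at 1 depth. The share of other hormone cells with an Nnat UMI at 2000 UMIs was 0.820%.

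**Figure D4:**
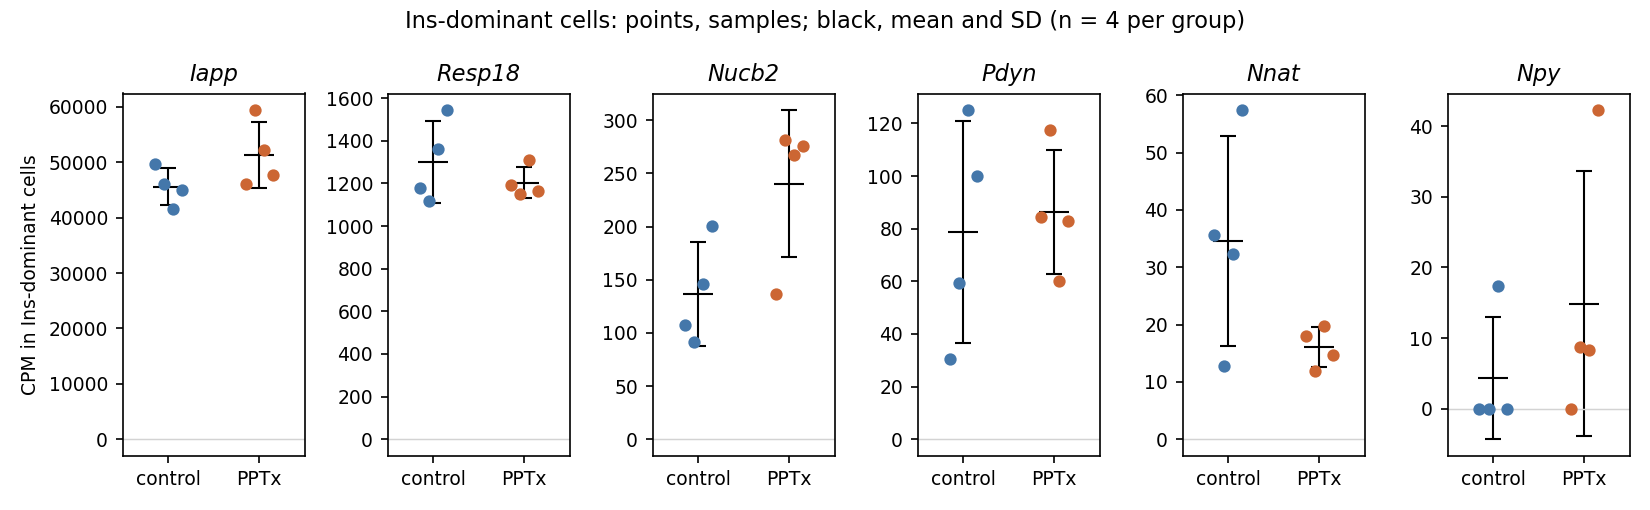
Level of 6 genes (CPM, linear axes that include 0) in the summed Ins-dominant cells of each control (blue) and PPTx (orange) sample, with the mean and SD in black (n = 4 each). The groups overlap for each of the 6; for Nucb2, 3 PPTx samples lie above all controls, and for Nnat, 3 controls lie above all PPTx samples.

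Of the lists, 0 of 10 other peptides, 0 of 4 processing enzymes, 0 of 10 imprinted genes and 0 of 1 receptor (Ramp1, part of the amylin receptor) were called between PPTx and control in Ins-dominant cells. Their median log2 differences were 0.07, 0.11, -0.17 and -0.17, against -0.01 for all genes tested.

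In the pooled other hormone cells, neither member tested was called (Iapp log2 difference 1.17, SE 0.40, edgeR adjusted p = 0.25; Resp18 -0.23, SE 0.28, adjusted p = 0.85), beside 1.12% of genes (15 of 1341, with 140 at an unadjusted p under 0.05, Iapp among them). Leaving out 1 sample at a time gave Iapp differences of 0.93 to 1.78, and without control sample 1 the difference was 1.78 and was called (edgeR adjusted p = 0.0287). The genes called numbered 6 without control sample 3, 8 without PPTx sample 1 and 33 without PPTx sample 3. The makeup of this pool differed between the groups, with a larger part of Ppy-dominant and a smaller part of Gcg-dominant cells after PPTx. The difference of the PPTx effect between this pool and Ins-dominant cells was 1.14 for Iapp (SE 0.49, adjusted p = 0.39), and 0 of 4 members were called, beside 0.246% of genes (8 of 3249, but 3 without control sample 3, 5 without PPTx sample 2 and 14 without control sample 4). The hormone classes were therefore fitted one by one, a choice made after seeing the data.

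In Ppy-dominant cells Iapp was higher after PPTx. The levels were 1638, 9015, 6886 and 5055 CPM in PPTx samples 1 to 4, against 493 to 623 CPM in the 4 controls. All PPTx samples lay above all controls. In the fit, which left out control sample 1 for its 2 cells, the log2 difference was 3.23 (SE 0.45, edgeR adjusted p = 0.000429, a 9.39-fold difference), with an exact permutation p of 0.0571, the smallest that 3 against 4 can give. Iapp was the 1 gene called among 603 (0.166%). Resp18, the other member tested, had a difference of -0.13 (SE 0.28, adjusted p = 0.95). The difference of the PPTx effect between Ppy-dominant and Ins-dominant cells was 2.95 for Iapp (SE 0.50, edgeR adjusted p = 6.85e-06), and 3 of 2930 genes were called (0.102%), Iapp, Sst and Gcg, and 1 without PPTx sample 1 or PPTx sample 2. Ins2 stood at 1.01% of the Ins-dominant level in control and 2.03% in PPTx Ppy-dominant cells, and Iapp at 1.33% and 11.9%. By sample, Ins2 of Ppy-dominant cells was 5933, 15447, 3106 and 9675 CPM after PPTx and 3231, 2518, 4286 and 8128 CPM in the controls. PPTx sample 2 was the highest, and PPTx samples 1 and 3 lay within the range of the controls. Iapp per 100 insulin UMIs was 12.8 ± 5.24 in control and 75.3 ± 71.2 in PPTx Ppy-dominant cells, higher than in the Ins-dominant cells of the same sample in 3 of 4 controls (exact sign-flip p = 0.25) and in 4 of 4 PPTx samples (exact p = 0.125, the smallest that 4 samples can give), or 7 of 8 over both groups (exact p = 0.0156). The ratios of PPTx samples 1 to 4 were 22.8, 51.8, 180 and 46.1, so that sample 3 raised their mean.

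Most Iapp UMIs of PPTx Ppy-dominant cells, 2434 of 3234, lay in a small number of cells with high Iapp. The median cell stood at 1214, 2297, 457 and 790 CPM in PPTx samples 1 to 4. In controls the medians were 339 to 720 CPM, a range that held PPTx sample 3. Iapp reached at least 10000 CPM in 12 of 96 PPTx Ppy-dominant cells, 0 of 18 in sample 1, 7 of 44 in sample 2, 3 of 19 in sample 3 and 2 of 15 in sample 4, and in 0 of 29 control cells. The limit was set after seeing the values, which left a gap between 7714 CPM in the highest cell below it and 15157 CPM in the lowest cell above it. The 84 other PPTx cells pooled to 1697 CPM, against 583 CPM in the control cells. By sample, the cells below the limit stood at 1638, 2525, 448 and 889 CPM in PPTx samples 1 to 4, so that sample 3 lay below all controls (493 to 623 CPM) and the other samples above them. Pooled insulin mRNA was higher in the same 84 cells too, with Ins2 at 8722 against 5346 CPM and Ins1 at 1147 against 685 CPM. Not every sample shared this rise. Ins1 below the limit was 1266, 1461, 398 and 1072 CPM in PPTx samples 1 to 4, against 615 to 714 CPM in controls. Ins2 over all Ppy-dominant cells of PPTx sample 3, at 3106 CPM, lay within the controls (2518 to 8128 CPM). The log2 difference without the 12 cells was 1.18, given as a description, since cells picked for their Iapp level in 1 group had to lower it. When a cell was classed by its largest hormone at any ratio, the difference was 2.18 (edgeR adjusted p = 0.56, within 2.08e-20 to 0.69 over 16 alternatives), and that of the PPTx effects was 2.27 (adjusted p = 0.32).

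**Figure D5:**
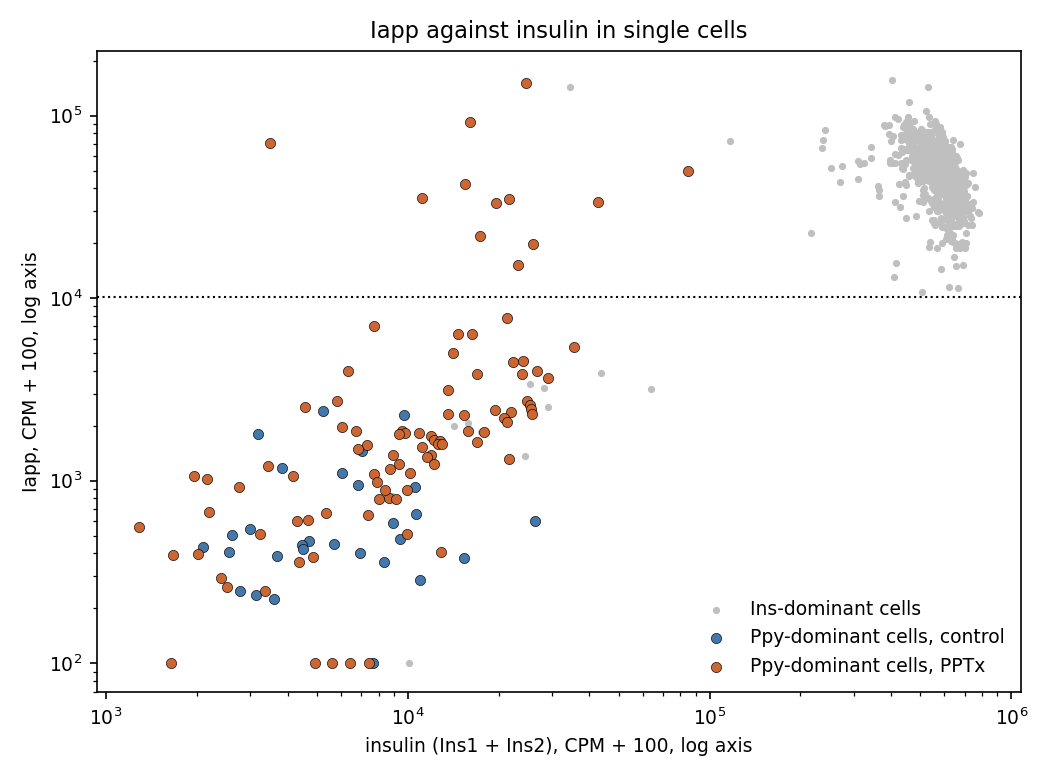
Iapp against insulin (Ins1 plus Ins2) in single cells, both as CPM + 100 on log axes, for Ins-dominant cells (grey) and Ppy-dominant cells of control (blue) and PPTx (orange) samples, with a dotted line at 10000 CPM Iapp. The 12 Ppy-dominant cells above the line, all from PPTx samples, reach the Iapp levels of Ins-dominant cells with far less insulin.

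In these 12 cells Iapp ranged from 15157 to 150056 CPM and insulin from 3385 to 84576 CPM. Iapp per 100 insulin UMIs was 58.6 to 2085 with a median of 165, whereas the median of Ins-dominant cells was 8.07 and their 99th percentile 23.2. Sst reached at most 3 UMIs and Gcg at most 2 UMIs in any of them. Their median depth was 3136 UMIs, against 4450.5 UMIs in the 66 other Ppy-dominant cells of the same 3 samples.

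Other genes of the 12 cells, chosen after their values were seen and given as pooled CPM beside those 66 cells, were also compared. Chga, the granule protein chromogranin A, was at 33123 against 2574 CPM, Chgb at 2292 against 958 CPM and Resp18 at 5456 against 3597 CPM. Insulin mRNA was also higher, with Ins1 at 4539 against 1100 CPM and Ins2 at 20355 against 9833 CPM. Ppp1r1a stood at 321 against 26.7 CPM, on 14 and 9 UMIs, and Hadh at 504 against 71.2 CPM, on 22 and 24 UMIs. These 2 genes were at 548 and 464 CPM in Ins-dominant cells and at 320 and 284 CPM in Sst-dominant cells. All 7, from Chga to Hadh, were higher in the 12 cells in each of the 3 samples. Ucn3 and Slc2a2 had 0 UMIs in the 12 cells and 4 and 3 UMIs in the 66, too few to compare these 2 sets of cells. In Ins-dominant cells Ucn3 was at 532 CPM. Among genes lower in the 12 cells were Sfrp5 (0 against 128 CPM), Glt8d1 (0 against 107 CPM) and Spp1 (22.9 against 252 CPM, on 1 UMI in the 12). Nucb2, at 22.9 against 65.2 CPM, rested on 1 UMI in the 12 cells. Ppy stood at 296321 against 508247 CPM and its relative Pyy at 74040 against 105911 CPM. The remaining Ins-dominant cell with little insulin and 144033 CPM Iapp held 389 Chga UMIs out of 3402.

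Markers of some other cells moved in the same samples. Over all Ppy-dominant cells, the 10 β-cell markers summed to 0 to 246 CPM in controls and 208 to 573 CPM after PPTx. Mafa and Trpm5 were at 0 UMIs in both. The acinar markers averaged 10.1 and 82.6 CPM. Not every list rose, as the stellate, ductal and immune markers averaged 58.8, 343 and 19.9 CPM in controls and 25.0, 356 and 24.7 CPM after PPTx. The 6 markers of PP cells averaged 380 CPM in control and 1184 CPM in PPTx Ins-dominant cells. Their part in the Iapp difference was not tested. As Ppy-dominant cells made up a larger share after PPTx, a change within cells and a change in which Ppy-dominant cells were captured cannot be told apart.

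In Gcg-dominant cells, with 4 control and 2 PPTx samples of 5 cells or more, the difference of Iapp was 0.35 (SE 0.44, edgeR adjusted p = 0.89) and 0 of 2 members were called, beside 0.69% of genes (2 of 290, with 22 at an unadjusted p under 0.05, and 1 called without control sample 4). The difference of Iapp became -0.89 without PPTx sample 2, which left 1 PPTx sample, and 2.61 (edgeR adjusted p = 0.000125) when cells were classed at any ratio. The test of a difference from the Ppy-dominant cells was not run.

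Replicating Ins-dominant cells, those with 2 or more UMIs over 10 replication genes, were compared with the other Ins-dominant cells of the same sample in the 6 samples that had at least 3. Iapp, Resp18 and Nucb2 were not called, with log2 differences of -0.29 (edgeR adjusted p = 0.50), -0.43 (0.195) and -0.40 (0.46), and the median of all genes was -0.10. These calls depended on the settings. Over 16 alternative fits the adjusted p ran from 2.96e-08 to 0.67 for Iapp, from 0.00065 to 0.43 for Resp18 and from 0.045 to 0.82 for Nucb2. Pdyn was called at 1.05 (SE 0.29, adjusted p = 0.00904), 1 of 4 members beside 5.81% of 2615 genes (152, and 95 without PPTx sample 1). Its direction was not shared by the samples, as it was higher in replicating cells in 3 of 6. The levels were 283 against 119 CPM in control sample 3, 483 against 56.2 in PPTx sample 1 and 200 against 46.7 in PPTx sample 3, but 0 against 103 in control sample 4, 57.7 against 121 in PPTx sample 2 and 0 against 84.6 in PPTx sample 4. In PPTx sample 1, 24 of 25 Pdyn UMIs of replicating cells came from 1 cell, and without that sample the difference was 0.42 (adjusted p = 0.65). It was also not called without control sample 3 (0.98, adjusted p = 0.102) or PPTx sample 3 (0.70, adjusted p = 0.305), nor by DESeq2 (0.18, adjusted p = 0.95). Among the other peptides, Pyy (-3.29), Scg5 (-0.80), Ucn3 (-0.77) and Chga (-0.64) were lower in replicating cells, and 5 of 9 were not called.

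Depth per cell was checked in the same way, by comparing cells above the median UMI count of their sample with the rest. Iapp was 49864 ± 6029 CPM in the deeper and 45971 ± 5165 CPM in the shallower Ins-dominant cells (n = 8 samples), higher in the deeper cells in 7 of 8 samples. The log2 difference was 0.17 (SE 0.043, edgeR adjusted p = 0.0199), and Iapp was the 1 of 4 members called, beside 1.32% of genes (38, but 14 to 25 without control sample 3 or 4 or PPTx sample 1, 2 or 3). The call was lost without control sample 3, PPTx sample 1 or PPTx sample 3 (edgeR adjusted p = 0.0886, 0.102 and 0.0762), and also without the 13 cells of little insulin (0.16, adjusted p = 0.0585). Resp18 had a difference of -0.17 (adjusted p = 0.41), Nucb2 of 0.44 (adjusted p = 0.0860) and Pdyn of 0.46 (adjusted p = 0.29).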

How the data were processed

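Islet cells of 4 control and 4 PPTx samples were analysed from the deposited UMI counts. Per the labels and methods, the authors captured single cells in droplets with a ddSEQ isolator and made 3′ libraries (with the kit of the ddSEQ system per the methods, a Chromium kit per the labels), demultiplexed with bcl2fastq, aligned to mm10 and counted with Cell Ranger, without normalization. Groups were taken from the labels. The limits of the study's methods on genes (100 to 3000) and UMIs (100 to 20000) per cell left out 8 of 1240 cells. No doublet caller was run. UMIs were summed per sample and class of at least 5 cells.

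Sums were tested with edgeR 4.0.16 in R 4.3.3 (filterByExpr, TMM factors, quasi-likelihood test, Benjamini-Hochberg adjustment over all genes tested, threshold 0.05), with a sample block for comparisons within samples, and single values with two-sided exact tests over samples. Thinning to 2000 UMIs left out 0 cells. The fits were tested on simulated data.

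The 7 genes and the lists were chosen with earlier results of these data known. By rule the text names the 7 genes, per list at most 4 called genes in either direction (those that changed most), and for each member its 3 best correlates. Alternatives were DESeq2 1.42.0, other size factors, no filter, hormone genes left out, class ratios of 1 and 5, thinning, leaving out each sample and a replicate block. Sst-dominant cells could not be fitted as planned, and the fits of single classes, of sums of 1 cell and without cells of high Iapp or little insulin were added after seeing the data. Depth per sample was 227439 to 1580152 UMIs, and intervals and floors of 3 counts cover counting error only.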

Additional observations from a re-analysis of the deposited data

Results flagged for a closer look

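Within groups of 4 samples, 25 levels of the 7 genes were checked for a sample far from the others, and 5 had one. Chance gives about 1 in 20 for continuous values, a rate that does not hold for Npy, Nnat and Dlk1, where the other 3 samples were at 0. In the pooled other hormone cells, Iapp stood at 5849 CPM in control sample 1, where 2 of 10 cells were Sst-dominant, and at 1483 to 1773 CPM in the other controls. Npy in Ins-dominant cells stood at 17.3 CPM in control sample 3 and at 0 in the other 3 controls. Nucb2 in Ins-dominant cells stood at 137 CPM in PPTx sample 1 and at 268 to 281 CPM in the other PPTx samples. Nnat in the other hormone cells stood at 5.30 CPM in control sample 4, from 1 UMI, and at 0 in the other controls. Dlk1 in Ins-dominant cells stood at 2.30 CPM in control sample 4, from 2 UMIs, and at 0 in the other controls.

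The difference of the PPTx effect on Iapp between Ppy-dominant and Ins-dominant cells was 2.95 on the log2 scale (edgeR adjusted p = 6.85e-06). Iapp was higher after PPTx in each of 4 samples of Ppy-dominant cells than in any control.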

How the results depend on the processing

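The differences of Iapp, Resp18 and Nucb2 between classes kept their direction and their call under every alternative that could fit them, although DESeq2's scaling moved the median of all genes in the Gcg-dominant comparison from -0.01 to -0.15 on the log2 scale. Without the filter on low counts 6 members were called in each class comparison. For PPTx in Ins-dominant cells, 2 members (Nnat and Nucb2) were called without the filter and 1 (Nucb2, adjusted p = 0.0300) with the replicate block, which moved the genes called from 16 to 35. The counts without the filter, after thinning and without single samples were 98, 9 and 1 to 20, the lowest being 1, 2 and 1 without control sample 1, control sample 2 and PPTx sample 1. Same-numbered samples correlated at 0.033 to 0.145 and others at -0.105 to 0.066. Every PPTx sample correlated best with its own number, a hint from the data only, but control sample 2 did with PPTx sample 3. Since not every pair was over 0.1, the numbers were not taken to pair the samples. In other hormone cells Iapp was called after thinning and without control sample 1 (0 to 1 members over the samples left out). In Ppy-dominant cells and for the difference from Ins-dominant cells, class ratio 1 gave 0 members, and so did the former without cells of at least 10000 CPM Iapp, which had to lower the difference. In Gcg-dominant cells class ratio 1 gave 1. For replicating cells the members called were 0 with DESeq2, after thinning or with at least 1 replicating cell, 2 with at least 3 marker UMIs, 4 without the filter and 0 to 2 without single samples, and the genes called went from 152 to 98 (DESeq2), 547 (no filter), 25 (thinned) and 79 (1 cell). For deeper against shallower cells they were 4 without the filter, 2 without hormone genes, 0 without cells under 10% insulin and 0 to 3 without single samples, with 38 genes called, 129 without the filter and 11 after thinning. The genes called between classes fell from 645 to 243 (Gcg) and from 633 to 199 (Ppy) after thinning, and rose to 1295 and 1393 without the filter. In the shares of cells, the 1 member under an exact p of 0.05 (Nnat) became 0 without thinning, at 4000 UMIs, with the replicate block (p = 0.125, the smallest that 4 pairs can give) and without any 1 sample, where fewer samples raise the smallest p, so the block and the left-out samples could not pass. Signs turned for Pdyn in PPTx Ins-dominant cells (-0.33 to 0.18 without single samples), Resp18 in Ppy-dominant cells (0.16 without the filter, -0.37 to 0.051 without single samples), Iapp in Gcg-dominant cells (-0.88 at class ratio 5, -0.89 to 1.05 without single samples) and the shares of Pdyn (-1.78 percentage points at 4000 UMIs, -1.27 to 2.37 without single samples) and Npy (-0.17 to 0.64). None of these was called with the main settings, but Iapp in Gcg-dominant cells was called at class ratio 1. The causes were not tested. At this depth Npy, Nnat and Dlk1 were too rare for most fits.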
